A study of Mus musculus with 6 samples.

Results

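Il6, Clec4e and Fpr2, genes that myeloid cells induce in inflammation, were read on expression arrays of stimulated mouse CD4+ T cells beside Cd14, Clec7a, Mpeg1, Cd68, Fcer1g and C1qb, which mark monocytes and macrophages. These 9 genes, of 22180 with a probe set annotated to 1 symbol alone, were taken by symbol, and the choice was made with their measured differences between the groups known. Their own values are therefore a description. How many of them passed the fit over all genes is stated once beside the same for all genes, and supports nothing. Each of the 9 had 1 such probe set.

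The T cells came from mouse spleen by magnetic bead isolation and were kept in RPMI medium with 10% serum. In all 6 samples CD3 and CD28 were engaged with antibodies (1 µg/ml) during 12 hours of culture, so no group was unstimulated. The groups were control conditioned medium (ConCM), medium with placental growth factor (PlGFCM), and control conditioned medium with IL-6 at 20 ng/ml (IL6_ConCM), with 2 samples each. PlGFCM was medium conditioned by clones of HEK-293, a human embryonic kidney line, that overexpress the PlGF2 form, and conditioned medium holds other products of the cells as well. The sources used here give neither strain, age or sex of the mice nor whether the 2 samples of a group were taken from different animals or cultures. P-values therefore rest on sample-to-sample spread alone, and how much of it is technical is not known.

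Macrophages, monocytes and neutrophils sense microbes and dead cells through surface receptors. Clec4e (Mincle) and Clec7a (dectin-1) are C-type lectins for glycolipids and fungal beta-glucans. Clec4e signals through the ITAM adaptor encoded by Fcer1g, and both lectins use the kinase Syk and the CARD9, BCL10 and MALT1 complex to activate NF-kappaB. Cd14 hands bacterial lipopolysaccharide to the receptor Tlr4, and Fpr2 is a G protein-coupled receptor for formylated and other peptides. Signals from these receptors induce Il6, a cytokine that acts on T cells through Il6ra and Il6st. None of the 9 genes is a defining gene of CD4+ T cells, although activated T cells can make IL-6.

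Of the 9 genes, 8 were in the RefSeq promoter table, all but Cd14. The 250 bases before the RefSeq start site (GRCm38.p6) are shown for the 3 inducible genes and for Clec7a, the lectin whose difference ran the other way. The Il6 stretch lies at chr5:30012864-30013113 on the plus strand, that of Clec4e at chr6:123289872-123290121 on the minus strand, Fpr2 at chr17:17887574-17887823 on the plus strand and Clec7a, at 1 of its 2 annotated starts, at chr6:129472780-129473029 on the minus strand. Each is read 5′ to 3′ along its gene, with capitals where a searched motif matched.
Il6: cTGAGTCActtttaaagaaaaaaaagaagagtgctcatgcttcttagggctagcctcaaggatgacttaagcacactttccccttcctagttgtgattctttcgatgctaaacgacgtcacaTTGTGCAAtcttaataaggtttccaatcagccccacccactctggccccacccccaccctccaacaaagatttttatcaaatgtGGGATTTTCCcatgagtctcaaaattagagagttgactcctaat
Clec4e: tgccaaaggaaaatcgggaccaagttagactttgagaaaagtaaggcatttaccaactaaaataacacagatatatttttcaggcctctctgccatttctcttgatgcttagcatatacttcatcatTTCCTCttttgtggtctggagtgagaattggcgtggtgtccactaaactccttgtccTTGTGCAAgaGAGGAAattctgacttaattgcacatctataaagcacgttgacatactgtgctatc
Fpr2: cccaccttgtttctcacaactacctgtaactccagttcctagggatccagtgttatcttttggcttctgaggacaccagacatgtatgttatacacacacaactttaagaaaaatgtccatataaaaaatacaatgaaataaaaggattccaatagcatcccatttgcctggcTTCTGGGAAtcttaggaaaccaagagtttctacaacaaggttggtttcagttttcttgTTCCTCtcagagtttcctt
Clec7a: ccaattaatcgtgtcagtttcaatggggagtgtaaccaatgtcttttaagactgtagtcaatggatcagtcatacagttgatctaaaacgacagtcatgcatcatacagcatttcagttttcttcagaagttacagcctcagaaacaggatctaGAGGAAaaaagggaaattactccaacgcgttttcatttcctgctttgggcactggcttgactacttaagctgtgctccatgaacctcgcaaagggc

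The motifs were the NF-kappaB consensus, C/EBP as TTGCNNAA, AP-1 as TGANTCA, PU.1 as GAGGAA and STAT as TTCNNNGAA, searched on both strands in windows of 300 bases that run on past the start site. Of 32851 mouse promoter windows, 8.46% held the NF-kappaB motif, 10.8% C/EBP, 7.81% AP-1, 28.3% PU.1 and 8.3% STAT. The Il6 promoter held TGAGTCA for AP-1 from -249, TTGTGCAA for C/EBP from -128 and GGGATTTTCC for NF-kappaB from -44, counted from the start site. The Clec4e promoter held the same C/EBP letters, TTGTGCAA, from -66, between PU.1 matches from -123 and from -56. The Fpr2 promoter held TTCTGGGAA for STAT from -77 and a PU.1 match from -19, and the Clec7a promoter held PU.1 from -96. Of the markers, Cd68 had 5 matches, 2 of them to AP-1, C1qb had 1, to PU.1, and Mpeg1 and Fcer1g had 0. The TTGTGCAA and TTCCTC letters are matches to C/EBP and PU.1 on the opposite strand. No matches overlapped in these windows, and a match is a run of letters and not a measured binding site.

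The arrays had median log2 levels of 5.47 to 5.51 over all 41345 probe sets. PlGFCM replicate 2 stood apart in sex-linked transcripts. Xist, the RNA of the inactive X chromosome, had a log2 level of 8.38 there and of 3.58 to 3.95 on the other 5 arrays. Uty, Kdm5d and Eif2s3y, all Y-linked, were lowest there at 7.50, 7.07 and 8.59. Elsewhere the lowest levels of these Y-linked genes were 7.77, 7.42 and 8.90 and the highest 8.14, 7.77 and 9.14, in that order. Beside its high Xist, PlGFCM replicate 2 therefore still had Y-linked levels above the array medians. The 2 PlGFCM samples thus differed in sex-linked RNA, and the reason was not tested. Differences of the 9 genes and medians of the gene lists are given with and without PlGFCM replicate 2. T cell identity genes were high throughout: Cd3e lay between 11.84 and 12.17, Cd4 between 11.13 and 11.40, and the mean over 11 measured genes of the list between 10.35 and 10.54. The RNA is from bulk cells, so fewer cells of a type and less RNA per cell cannot be told apart. The table has no detection calls, and a low level was not separated from absence.

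Il6, the cytokine itself, had log2 levels of 5.22 and 5.65 with ConCM, 5.86 and 5.74 with PlGFCM and 4.84 and 4.88 with IL6_ConCM. The groups did not overlap and ran in the order IL6_ConCM, ConCM, PlGFCM. PlGFCM lay above ConCM by 0.36 ± 0.15 (log2 difference ± SE from limma, n = 2 a group), or 1.29-fold. The ConCM arrays were 0.43 apart, and without ConCM replicate 1 the difference was 0.15 and without ConCM replicate 2 it was 0.58. Cells given IL-6 protein lay 0.58 ± 0.15 below ConCM, 1.49-fold lower, with a difference of -0.36 without ConCM replicate 2 and -0.79 without ConCM replicate 1, and PlGFCM lay 0.94 ± 0.15 above them, or 1.92-fold.

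Clec4e had log2 levels of 5.84 and 5.62 under ConCM, 6.55 and 6.61 under PlGFCM and 5.63 and 5.54 under IL6_ConCM. Both PlGFCM arrays stood above the other 4, while ConCM and IL6_ConCM overlapped. The difference was 0.85 ± 0.12 (SE) from ConCM, 1.80-fold, and 0.99 ± 0.12 from IL6_ConCM, 1.99-fold, which was the widest of the 9 genes in both comparisons. IL6_ConCM and ConCM differed by -0.14 ± 0.12, with the 2 ConCM arrays 0.22 apart.

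Fpr2 had log2 levels of 4.98 and 4.79 on the ConCM arrays, 5.49 and 5.23 on those of PlGFCM and 4.41 and 4.48 on those of IL6_ConCM. As for Il6, the groups did not overlap and IL6_ConCM was lowest. The formyl peptide receptors are a family of similar sequence, so the assignment of this probe set is uncertain. PlGFCM lay 0.47 ± 0.15 (SE) above ConCM, 1.39-fold, and IL6_ConCM 0.44 ± 0.15 below it, 1.36-fold lower. The difference of PlGFCM from IL6_ConCM was 0.92 ± 0.15, or 1.89-fold. The mean levels of Il6 and Fpr2 over the 6 arrays, 5.37 and 4.90, lay below the array medians of 5.47 to 5.51. Without PlGFCM replicate 2 the differences of Il6, Clec4e and Fpr2 from ConCM were 0.42, 0.82 and 0.60.

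**Figure D1:**
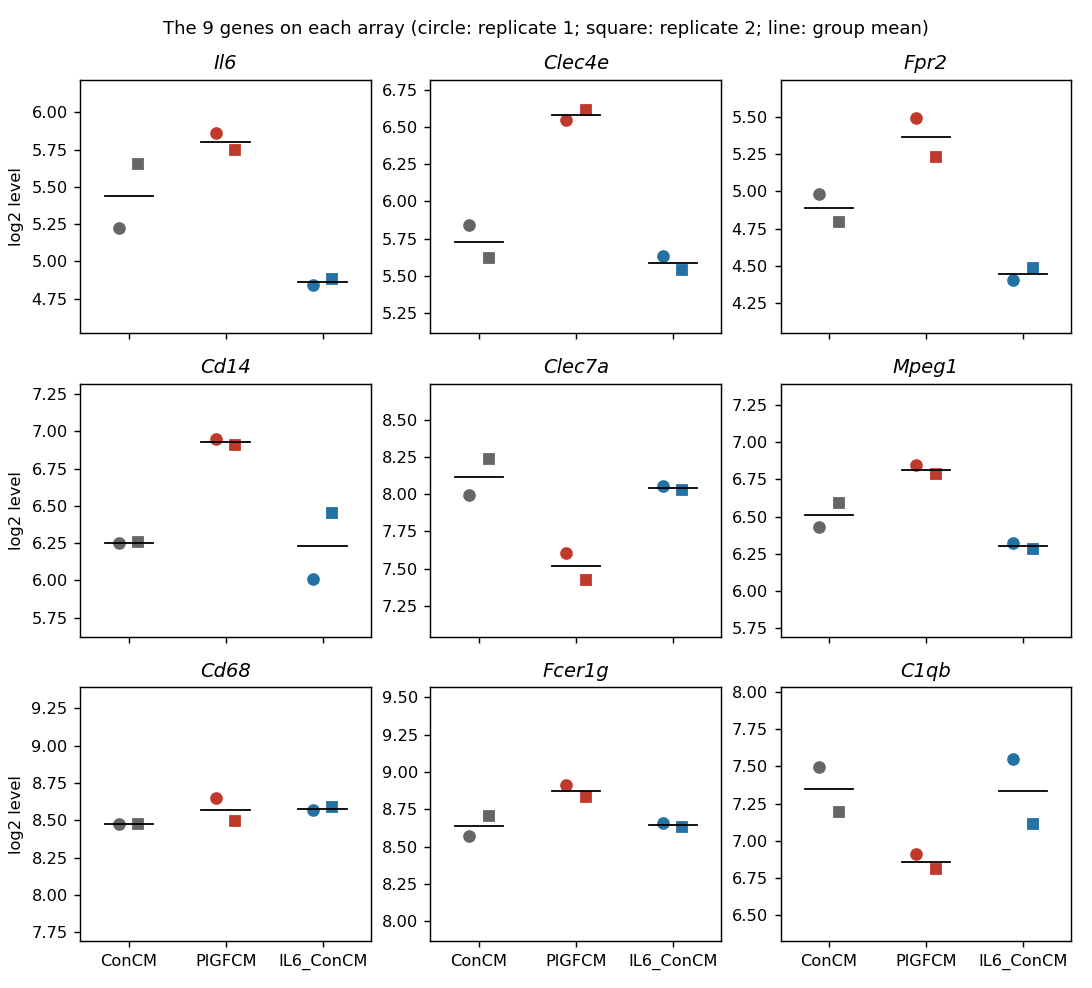
Log2 level of each of the 9 genes on each of the 6 arrays, 1 panel a gene with axes of equal span, circles and squares for replicates 1 and 2 and a line for the group mean. The PlGFCM points of Clec4e, at 6.55 and 6.61, lie above all others, the Cd68 points span 0.18, and the Clec7a and C1qb points are lowest in PlGFCM.

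Cd14, the co-receptor for lipopolysaccharide, had log2 levels of 6.25 and 6.26 with ConCM, 6.95 and 6.91 with PlGFCM and 6.01 and 6.45 with IL6_ConCM. It was high on both PlGFCM arrays, by 0.67 ± 0.14 (SE) over ConCM, or 1.59-fold, and by 0.70 ± 0.14 over IL6_ConCM, or 1.62-fold. The IL6_ConCM arrays were 0.44 apart and enclosed both ConCM values. Although placed among the markers, Cd14 thus had a difference from ConCM inside the range of the 3 inducible genes, 0.36 to 0.85.

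Clec7a had log2 levels of 7.997 and 8.23 under ConCM, 7.61 and 7.43 under PlGFCM and 8.05 and 8.03 under IL6_ConCM. The PlGFCM arrays were the lowest, by 0.60 ± 0.11 (SE) from ConCM, 1.51-fold lower, and by 0.52 ± 0.11 from IL6_ConCM, 1.44-fold lower. Both IL6_ConCM arrays fell inside the ConCM range. The 2 lectin receptors thus differed in opposite directions in PlGFCM, Clec4e higher and Clec7a lower.

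Fcer1g, the adaptor of Clec4e and of several Fc receptors, had log2 levels of 8.57 and 8.70 on the ConCM arrays, 8.91 and 8.83 on those of PlGFCM and 8.66 and 8.63 on those of IL6_ConCM. PlGFCM was highest, by 0.24 ± 0.08 (SE) over ConCM, 1.18-fold, and by 0.23 ± 0.08 over IL6_ConCM. The IL6_ConCM arrays lay inside the ConCM range.

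Mpeg1, which encodes the pore-forming protein perforin-2 of macrophages, had log2 levels of 6.43 and 6.59 with ConCM, 6.84 and 6.78 with PlGFCM and 6.32 and 6.28 with IL6_ConCM. The groups did not overlap and had the order of Il6 and Fpr2, with narrower steps of 0.30 ± 0.11 (SE) from ConCM up to PlGFCM and 0.21 ± 0.11 from ConCM down to IL6_ConCM. Without ConCM replicate 2 the Mpeg1 difference of IL6_ConCM from ConCM was -0.13. Cd68, the lysosomal glycoprotein macrosialin, had log2 levels of 8.47 and 8.47 under ConCM, 8.65 and 8.49 under PlGFCM and 8.57 and 8.59 under IL6_ConCM. Its 6 arrays spanned 0.18, the narrowest range of the 9 genes. The Cd68 difference of PlGFCM from ConCM was 0.10 ± 0.08 and was 0.02 without PlGFCM replicate 1.

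C1qb, a chain of complement C1q made by tissue macrophages, had log2 levels of 7.49 and 7.20 on the ConCM arrays, 6.91 and 6.81 on those of PlGFCM and 7.55 and 7.11 on those of IL6_ConCM. PlGFCM was lowest, 0.49 ± 0.15 (SE) below ConCM, 1.40-fold lower, and 0.47 ± 0.15 below IL6_ConCM. Without IL6_ConCM replicate 1 the difference from IL6_ConCM was -0.25, and without IL6_ConCM replicate 2 it was -0.69. The IL6_ConCM arrays were 0.44 apart and enclosed both ConCM values. The other C1q chains, C1qa and C1qc, were also lower in PlGFCM, by 0.23 ± 0.13 and 0.41 ± 0.14, and neither passed the test (limma adjusted p of 0.667 and 0.391). C1qc had log2 levels of 5.54 and 5.49 with ConCM, 5.13 and 5.08 with PlGFCM and 5.61 and 5.26 with IL6_ConCM. Without PlGFCM replicate 2, Cd14 lay 0.70 above ConCM, Mpeg1 0.33, Fcer1g 0.27 and Cd68 0.18, while Clec7a lay at -0.51 and C1qb at -0.44 from it. Against IL6_ConCM and without the same array, the differences were 1.001 for Il6, 0.96 for Clec4e, 1.05 for Fpr2, 0.72 for Cd14, 0.54 for Mpeg1, 0.27 for Fcer1g, 0.07 for Cd68, -0.43 for Clec7a and -0.42 for C1qb. The sign changed for Cd68 alone.

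Set beside each other, the 3 inducible genes had the same order of group means, lowest in IL6_ConCM and highest in PlGFCM, and so had the markers Cd14 and Mpeg1. The other markers had other orders. With each gene centred on its own mean, the mean of Il6, Clec4e and Fpr2 was -0.06 and -0.05 under ConCM, 0.56 and 0.45 under PlGFCM and -0.45 and -0.44 under IL6_ConCM. The mean of the 6 markers was -0.02 and 0.02 on the ConCM arrays, 0.09 and -0.02 on those of PlGFCM and -0.03 and -0.04 on those of IL6_ConCM. That marker mean hides opposite differences: in PlGFCM against ConCM, Cd14, Mpeg1, Fcer1g and Cd68 were higher, and Clec7a and C1qb lower. In IL6_ConCM against ConCM the 6 marker differences lay between -0.21 and 0.10.

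All 9 genes had non-overlapping groups between PlGFCM and ConCM, 7 higher and 2 lower, where 17.3% of all genes were wholly higher and 20.9% wholly lower. Clec4e passed as higher and Clec7a as lower, as did 0.352% and 0.0812% of the 22180 genes, and both calls were lost without PlGFCM replicate 1, PlGFCM replicate 2 or ConCM replicate 2. Between IL6_ConCM and ConCM, Il6, Fpr2 and Mpeg1 were wholly lower and Cd68 wholly higher, against 18.4% and 15.7% of all genes. None of the 9 passed there (limma), where 0.0857% of genes passed as higher and 0.0271% as lower. An unadjusted p under 0.05 (limma) was reached by 8, 2 and 8 of the 9 in PlGFCM against ConCM, IL6_ConCM against ConCM and PlGFCM against IL6_ConCM. Of all 22180 genes, 1938, 1247 and 969 reached it in the same order. The counts of the gene lists below are to be read beside these. Between PlGFCM and IL6_ConCM, 6 of the 9 were wholly higher and 2 wholly lower, against 15.2% and 14.9%, and Cd68 overlapped. Clec4e passed as higher, where 0.0316% of genes did, and lost the call without any 1 of the 4 arrays compared. In that comparison 0% of genes passed as lower, although 401 genes were lower at an unadjusted p under 0.05. Since these contrasts were known when the genes were chosen, nothing is read from the counts. PlGFCM and IL6_ConCM share their ConCM arrays as the control, so agreement between those differences is not a result either.

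**Figure D2:**
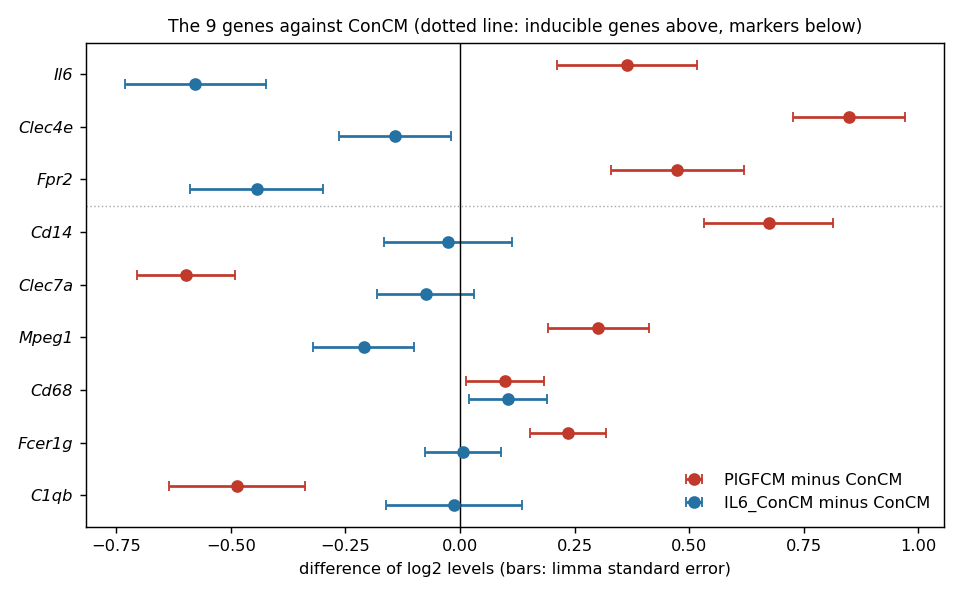
Log2 difference of each of the 9 genes from ConCM, in PlGFCM and in IL6_ConCM, with bars of 1 SE from limma, n = 2 arrays a group. In PlGFCM against ConCM the differences run from -0.60 for Clec7a to 0.85 for Clec4e, and those of the markers in IL6_ConCM against ConCM lie between -0.21 and 0.10.

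Genes outside the 9, grouped by the pathways they work in, were tested with limma over all 22180 genes. The IL-6 family and its receptors had 12 of 13 genes measured. Il6ra, the ligand-binding chain of the IL-6 receptor, rose in PlGFCM from log2 levels of 9.63 and 9.55 to 9.96 and 10.04, by 0.41 ± 0.07 (SE), with an adjusted p of 0.0285. It had levels of 9.94 and 9.95 in IL6_ConCM, 0.36 above ConCM, with an adjusted p of 0.101. The Il6ra call was lost without any 1 of the 4 arrays compared. Il6st, the signalling chain gp130, was 0.21 ± 0.08 higher in PlGFCM (adjusted p of 0.406). No gene of the family passed in the other comparisons, where 3 and 1 of 12 had an unadjusted p under 0.05. The median difference of the family was 0.07, 0.03 and 0.06 in PlGFCM against ConCM, IL6_ConCM against ConCM and PlGFCM against IL6_ConCM, where that of all genes was -0.01, -0.01 and -0.00.

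Of the C-type lectins listed from the Clec4 and Clec7 clusters and their relatives, none of 17 measured passed in any comparison (limma), with 2 of 17 at an unadjusted p under 0.05 in each, and the median difference of PlGFCM from ConCM was -0.07. Clec4d, which pairs with Clec4e at the cell surface, had log2 levels of 4.42 and 4.63 with ConCM, 4.30 and 4.89 with PlGFCM and 4.35 and 4.37 with IL6_ConCM. Its PlGFCM arrays enclosed both ConCM values, at a difference of 0.07 ± 0.19 (SE, adjusted p of 0.957). The smallest p-values against ConCM belonged to Clec12b, an inhibitory lectin, at -0.66 (adjusted p of 0.0927), and Olr1, the receptor for oxidised lipoprotein, at 0.51 (adjusted p of 0.225).

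Of 14 measured ITAM adaptors and signalling genes downstream of Syk, Malt1 alone passed. Malt1, the protease of the complex that acts below CARD9 and also below the T cell receptor, had log2 levels of 11.58 and 11.40 under ConCM, 12.08 and 12.13 under PlGFCM and 11.95 and 11.96 under IL6_ConCM. It rose by 0.62 ± 0.06 (SE) in PlGFCM (limma adjusted p of 0.0020) and by 0.46 ± 0.06 in IL6_ConCM (adjusted p of 0.0186). The first call was lost without PlGFCM replicate 2, and the second without ConCM replicate 2 or without any 1 of the PlGFCM or IL6_ConCM arrays. Card9 was 0.29 ± 0.12 higher in PlGFCM and Tyrobp, the adaptor DAP12, 0.16 ± 0.15 higher, and neither passed (adjusted p of 0.485 and 0.836). In PlGFCM against IL6_ConCM no gene of the list passed, with 2 of 14 at an unadjusted p under 0.05. The median differences in the 3 comparisons were 0.11, 0.04 and 0.09.

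Receptors related to Fpr2, Fcer1g and Cd14 gave no call either. Among 8 measured Fc receptor genes none passed (limma), with 1, 0 and 0 at an unadjusted p under 0.05 in the 3 comparisons, and the median differences were 0.06, 0.13 and 0.01. Fcgr2b, the inhibitory receptor for IgG, was 0.35 ± 0.12 (SE) higher in PlGFCM. Of 10 measured formyl peptide and chemoattractant receptors none passed, with 2, 1 and 3 at an unadjusted p under 0.05 and median differences of -0.05, -0.08 and -0.04. Fpr-rs4 had its lowest levels in PlGFCM, at 1.76 and 1.99, and its highest in IL6_ConCM, at 2.75 and 2.99, a difference of -1.001 (adjusted p of 0.137). Its probe set, like that of Fpr2, belongs to a family of similar sequence, so the assignment is uncertain. The Fpr-rs4 levels are also near the bottom of the arrays, whose lowest values were 1.15 to 1.26. Of 18 measured genes of CD14, Toll-like receptor and MyD88 signalling none passed, with 2 at an unadjusted p under 0.05 in each comparison and medians of 0.05, 0.01 and 0.00. Tlr4, which receives lipopolysaccharide from CD14, differed by -0.08 ± 0.13 (SE) between PlGFCM and ConCM, and Tlr7, an endosomal RNA sensor, by -0.57 ± 0.12 (adjusted p of 0.918 and 0.0844). Fpr1 was not analysed here.

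Of 24 measured inflammatory genes that myeloid cells induce, 3 rose in PlGFCM over ConCM. In that comparison 19 of the 24 differences were above 0, with a median of 0.17, where 10291 of all 22180 were. Il1a, which encodes the cytokine IL-1 alpha, had log2 levels of 8.66 and 8.38 on the ConCM arrays, 9.45 and 9.21 on those of PlGFCM and 8.51 and 8.18 on those of IL6_ConCM. It rose by 0.81 ± 0.13 (SE) over ConCM and by 0.98 ± 0.13 over IL6_ConCM (limma adjusted p of 0.0223 and 0.0282). Il1b, which encodes IL-1 beta, rose from 9.02 and 9.12 to 9.78 and 9.58, by 0.61 ± 0.09 (adjusted p of 0.0155), and had levels of 9.05 and 9.17 in IL6_ConCM. Socs3, a feedback inhibitor of IL-6 signalling that T cells also make, rose from 9.37 and 9.21 to 9.87 and 9.69, by 0.49 ± 0.09 (adjusted p of 0.0442), with 9.61 and 9.76 in IL6_ConCM. The Socs3 call was also lost after subtraction of array medians, with probe sets averaged per gene and with the replicate block.

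Among the rest of that list, Il1rn, the IL-1 receptor antagonist, was 0.51 ± 0.10 (SE) higher in PlGFCM, Acod1, the enzyme that makes itaconate, 0.58 ± 0.17, and Lcn2, the iron-scavenging protein lipocalin 2, 0.79 ± 0.22, and none of these passed (limma adjusted p of 0.0665, 0.269 and 0.232). In IL6_ConCM against ConCM none of the 24 passed, 5 had an unadjusted p under 0.05, and the median was 0.02. For PlGFCM, 10 of the 24 had such a p against ConCM and 10 against IL6_ConCM. In PlGFCM against IL6_ConCM, 22 of 24 differences were above 0, with a median of 0.20. In fits without 1 array of PlGFCM or ConCM, calls of this list against ConCM were lost, save that of Il1a without ConCM replicate 1. Such a fit leaves 1 array in a group, so a lost call cannot show that a single array made the difference. The median against ConCM was 0.15 without PlGFCM replicate 2 and 0.29 without PlGFCM replicate 1. It was 0.19 without ConCM replicate 2 and 0.38 without ConCM replicate 1. The Il1a call against IL6_ConCM was lost without either PlGFCM array or IL6_ConCM replicate 2.

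**Figure D3:**
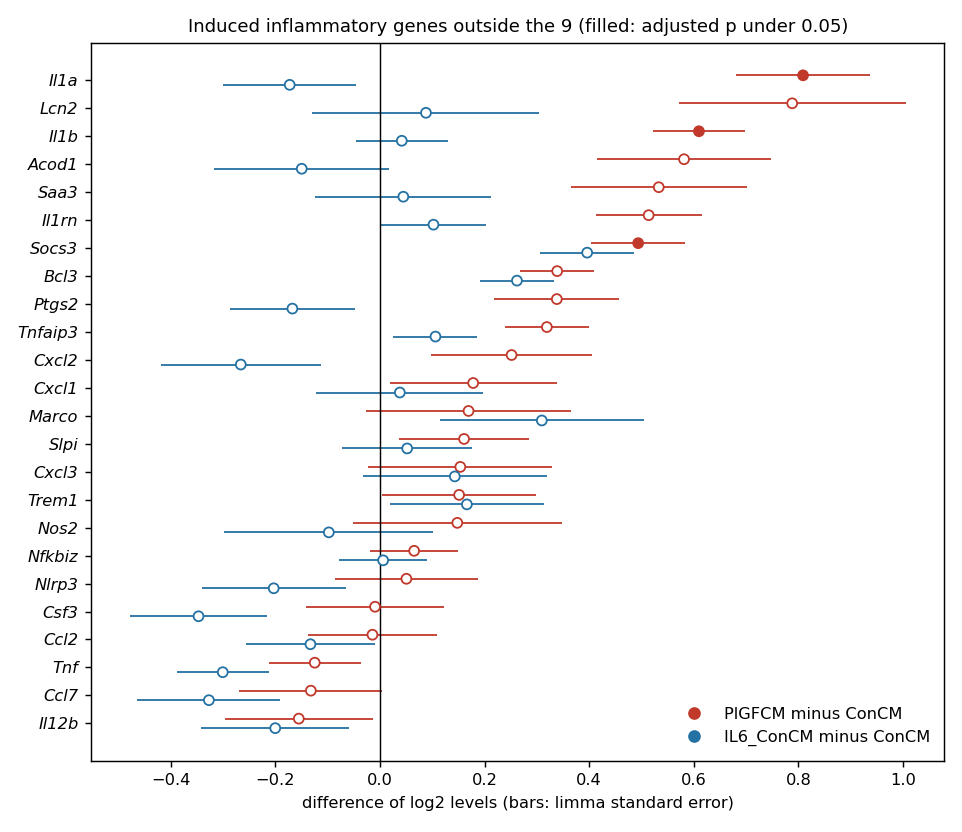
Log2 difference of the 24 measured induced inflammatory genes in PlGFCM against ConCM and in IL6_ConCM against ConCM, 1 row a gene, with bars of 1 SE from limma and filled points where the adjusted p was under 0.05. In PlGFCM 19 points lie above 0, with Il1a, Lcn2 and Il1b at the top at 0.81, 0.79 and 0.61, and in IL6_ConCM 13 do.

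Defining genes of the cell types that carry the 9 were read array by array. The mean log2 level of 22 macrophage and monocyte markers was 6.57 and 6.63 with ConCM, 6.72 and 6.63 with PlGFCM and 6.62 and 6.62 with IL6_ConCM. PlGFCM replicate 1 was highest, and the other 5 arrays lay between 6.57 and 6.63. None of the 22 passed (limma), with 2, 2 and 3 at an unadjusted p under 0.05 and medians of 0.12, 0.03 and 0.06 in the 3 comparisons. Csf1r, the receptor for the macrophage growth factor M-CSF, lay between 6.35 and 6.49 on all arrays, and Lyz2, lysozyme, between 4.69 and 5.31, differing by -0.04 ± 0.11 (SE) and 0.31 ± 0.16 between PlGFCM and ConCM (adjusted p of 0.955 and 0.631). Adgre1, which encodes a surface antigen of mouse macrophages, was higher by 0.38 ± 0.12 (adjusted p of 0.334). The part that a different number of myeloid cells has in the values of the 9 genes was not tested.

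Complement and scavenger genes of resident macrophages, the company of C1qb, had a mean log2 level of 6.10 and 6.07 under ConCM, 5.95 and 6.004 under PlGFCM and 6.13 and 6.06 under IL6_ConCM, lowest on both PlGFCM arrays. None of 14 passed (limma), with 4, 1 and 3 at an unadjusted p under 0.05, and the median differences were -0.05, -0.02 and -0.11. Slc40a1, the iron exporter ferroportin, was 0.70 ± 0.14 (SE) lower in PlGFCM, with an adjusted p of 0.0632.

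Of 14 neutrophil markers, Ly6g rose in PlGFCM by 1.62 and in IL6_ConCM by 1.36 (limma adjusted p of 9.62e-05 and 0.00253), and no other passed. The Ly6 family has members of similar sequence, so its assignment is uncertain. S100a8, among the most abundant transcripts of neutrophils, had log2 levels of 2.98 to 3.24 over the 6 arrays and differed by -0.00 ± 0.16 (SE) between PlGFCM and ConCM. The mean of the list was 4.61 and 4.605 on the ConCM arrays, 4.58 and 4.76 on those of PlGFCM and 4.74 and 4.65 on those of IL6_ConCM.

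Among markers of lymphocytes, 13 B cell genes were measured, of which Ms4a1 and Fcer2a fell in PlGFCM, by 0.84 and 0.86 (limma adjusted p of 0.0125 and 0.0206). Both calls were lost without PlGFCM replicate 1, PlGFCM replicate 2 or ConCM replicate 2, and that of Ms4a1 also without ConCM replicate 1. The mean level of the B cell list lay between 6.63 and 6.68 on the 6 arrays. Of 9 NK and CD8 T cell markers, Gzma, granzyme A, rose in PlGFCM by 0.93 and in IL6_ConCM by 1.12 (adjusted p of 0.0123 and 0.00692). The first call was lost without PlGFCM replicate 1, PlGFCM replicate 2 or ConCM replicate 2, and the second without ConCM replicate 2. None of the 11 T cell identity genes, 13 dendritic cell, 11 mast cell and basophil, 12 fibroblast and endothelial or 6 erythroid and platelet markers passed in any comparison, with 1, 1, 0, 1 and 0 at an unadjusted p under 0.05 in PlGFCM against ConCM, 0, 2, 1, 0 and 0 in IL6_ConCM against ConCM, and 0, 1, 2, 2 and 0 in PlGFCM against IL6_ConCM. In the last of these no neutrophil, B cell, NK or CD8 T cell marker passed either, with 2, 5 and 0 of the 3 lists at that p.

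Without PlGFCM replicate 2, Ly6g was the only listed gene that passed in PlGFCM against ConCM, and none passed against IL6_ConCM (limma). Against ConCM the medians were then 0.00 for the IL-6 family, -0.05 for the C-type lectins, 0.17 for ITAM signalling, 0.12 for Fc receptors, -0.04 for formyl peptide and chemoattractant receptors and 0.07 for CD14 and Toll-like receptor signalling. Those of the marker lists were 0.12 for macrophages and monocytes, -0.04 for resident macrophages, -0.18 for neutrophils, 0.04 for dendritic cells, 0.05 for B cells, 0.07 for T cells, -0.23 for NK and CD8 T cells, 0.02 for mast cells and basophils, -0.17 for fibroblasts and endothelium and -0.06 for erythroid cells and platelets. The neutrophil median and that of NK and CD8 T cells differed most from those with both arrays, -0.05 and -0.10. Against IL6_ConCM the medians of the formyl peptide, neutrophil and mast cell lists changed sign without that array, to 0.07, -0.06 and -0.04.

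**Figure D4:**
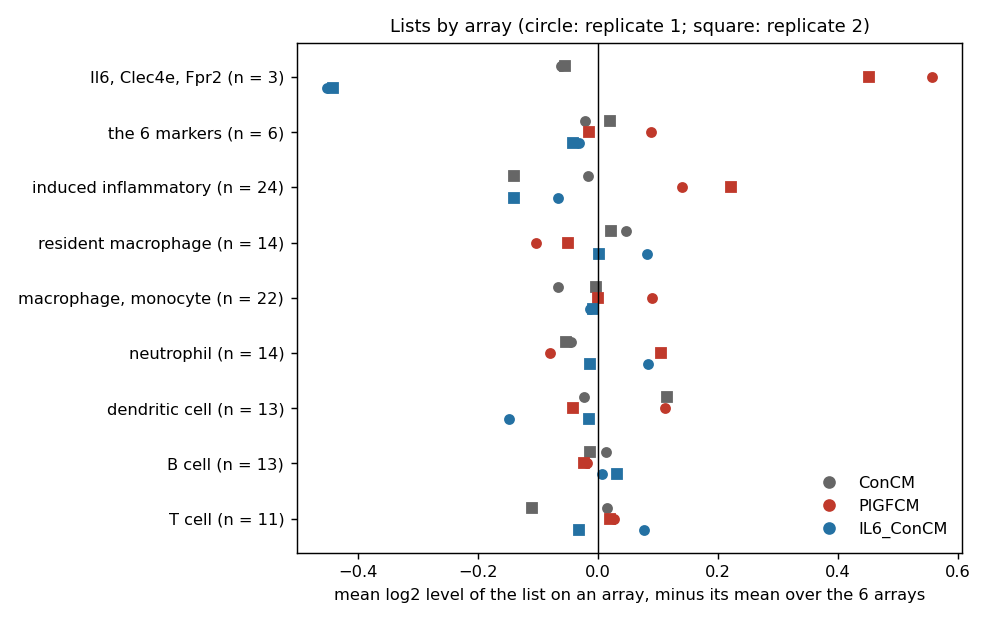
Mean log2 level of 9 gene lists, with the number of genes in brackets, on each of the 6 arrays, each centred on its own mean over the arrays. The 3 inducible genes reach 0.56 and 0.45 on the PlGFCM arrays and -0.45 and -0.44 on the IL6_ConCM arrays. They were chosen with these differences known, and the lists differ in size, so the spans are not compared.

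Genes like the mean of Il6, Clec4e and Fpr2 were taken by Pearson's r over the 6 arrays, among 271 other genes that varied by at least 1 log2 unit. Predicted gene models, clone-named transcripts and antigen receptor segments among these were passed over. The 6 markers varied by less, from 0.18 for Cd68 to 0.94 for Cd14, and were not ranked. The genes with the highest r were then Il1a, at an r of 0.927, Olfr495 at 0.911, Cpt1a at 0.863, Olfr908 at 0.846 and Aqp3 at 0.841. The 6 points come from 3 groups of 2 arrays, and the probe sets of olfactory receptors can bind related transcripts. Olfr495 had log2 levels of only 2.32 to 3.48 and Olfr908 of 2.62 to 3.70, below the array medians of 5.47 to 5.51. Cpt1a, the mitochondrial enzyme that loads fatty acids onto carnitine, had log2 levels of 6.97 and 7.00 with ConCM, 7.97 and 8.04 with PlGFCM and 7.13 and 7.05 with IL6_ConCM. Aqp3, a water and glycerol channel, had 6.81 and 6.72, 7.65 and 7.74, and 6.80 and 6.97 in the same order. Like Clec4e, and unlike Il6 and Fpr2, neither had both IL6_ConCM arrays below those of ConCM.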

How the data were processed

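Total RNA was hybridised to Affymetrix whole-transcript arrays. The deposited values are log2 levels, 1 for each probe set and array. Per the submitters' processing notes, the authors used Transcriptome Analysis Console, and neither its version nor the normalization or build it applied is stated there. That the values are log2 levels was judged from their range. Of 41345 probe sets, 23521 have 1 symbol in the platform annotation, 1814 have several and were left out, and the brightest per gene was kept, leaving 22180 genes, and low levels were not filtered. All 9 gene IDs were found in the RefSeq gene table under the same symbol. Arrays give no read depth, so their number limits the precision.

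The 3 groups follow the treatment in the labels. Differences were fitted with limma 3.58.1 in R 4.3.3 (lmFit, eBayes with an intensity trend, all 6 arrays, 3 residual and a median of 8.14 prior degrees of freedom), with Benjamini-Hochberg adjustment over 22180 genes and a threshold of 0.05. A gene was said to rise or fall only where it passed. An exact two-sided permutation test of 2 against 2 arrays cannot go below a p of 0.333, so none was run. The fit was tested on simulated data.

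The 9 genes, the 17 gene lists (242 genes, 220 measured, none of the 9 among them) and the tests were chosen with earlier results of these data known, so no list is independent evidence. The rule for named genes took all 9, the genes of each list that passed, otherwise up to 3 with the smallest p, the genes Il6ra, Il6st, Clec4d, Fpr1, Tlr4, Tyrobp, Lyz2, Csf1r, Il1b, Cd3e and Cd4, and the 5 most like the inducible genes. One item of that rule is not reported here. Card9, Il1rn, Acod1, Lcn2, C1qa, S100a8 and the sex-linked genes fall outside it and were chosen after their values were seen. The fit was repeated after quantile normalization or centring of each array on its median, with a filter that kept the brighter genes (mean at or above the median), with probe sets averaged per gene, without a trend, with a robust prior, with the compared groups alone, with the replicate number as a block, and without each array in turn.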

Additional observations from a re-analysis of the deposited data

How the results depend on the processing

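Differences of the 9 genes are means of 2 arrays of 1 probe set each, so settings that change only the test leave them as they are, and leaving out 1 array moves a group mean by a fixed part of its spread. Only the rescalings could move them otherwise, and the single move past 1 SD of the replicates was that of Cd14 in PlGFCM against ConCM, from 0.67 to 0.63 after quantile normalization. Without ConCM replicate 1 that of Il6 fell from 0.36 to 0.15. A sign changed in 10 of 372 values, all in 5 differences near 0 that no fit called (Cd14, Clec7a, Fcer1g and C1qb in IL6_ConCM against ConCM, and Cd68 in PlGFCM against IL6_ConCM). The filter at the median level, which was taken over all probe sets, removed Il6 and Fpr2. The Clec4e call against ConCM held in 10 of 14 alternatives and that of Clec7a in 8, the latter also lost after subtraction of array medians and with the replicate block. All calls of both were lost without an intensity trend, and Clec4e against IL6_ConCM, called in 8 of 14, also with the replicate block. The number of genes that passed was 96 in PlGFCM against ConCM, 25 in IL6_ConCM against ConCM and 7 in PlGFCM against IL6_ConCM. It was 174, 53 and 10 at or above the median level, where fewer genes were tested, and 6, 1 and 0 without an intensity trend, where the cause was not tested. With the compared groups alone, which leaves fewer samples, it was 106, 12 and 5. With each array left out in turn it ran from 12 (without PlGFCM replicate 2) to 107, from 2 (without ConCM replicate 2) to 41 (without ConCM replicate 1), and from 0 (without PlGFCM replicate 2 or IL6_ConCM replicate 2) to 5. With the replicate number as a block (replicate block) it was 62, 16 and 5. The deviations of same-numbered arrays correlated at -0.04, 0.11 and 0.03. Noise of the arrays can hide a pairing, so these values cannot show whether the numbers pair the samples. Outside the 9 genes, Il6ra held in 8 of 14 alternatives, Malt1 in 12 against ConCM in PlGFCM and 6 in IL6_ConCM, Il1b in 9, Il1a in 10 in each of its comparisons, Socs3 in 6 and Ly6g in all 14 of both.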
